A study of Homo sapiens with 10 samples.

Results

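The enzymes that write, keep and remove DNA methylation and the core of Polycomb repressive complex 2 (PRC2) were followed in MIA PaCa-2 cells given hydroxyprogesterone caproate (HPC). The set was given by gene symbol: DNMT1, UHRF1, DNMT3A, DNMT3B, EZH2, SUZ12, EED, TET1, TET2 and TET3. All 10 were among the 16734 genes measured. MIA PaCa-2 is an established human pancreatic ductal adenocarcinoma line, and HPC is a synthetic progestin. One group was exposed to 10 µM HPC and the other to the same volume of the solvent DMSO, both for 24 h in serum-containing medium, with 5 libraries of poly(A) RNA in each. The labels call the libraries biological replicates and do not say whether each came from its own culture, so p-values speak for the spread among these 10 libraries of 1 line.

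DNA methylation in mammals is copied onto new strands after replication by DNMT1, which UHRF1 brings to half-methylated sites, while DNMT3A and DNMT3B place methyl groups on unmethylated DNA. The TET enzymes oxidise methylated cytosine and so open the way to its removal. PRC2 methylates lysine on the tail of histone H3 (H3K27) to hold genes silent, with EZH2 as its catalytic subunit and SUZ12 and EED as core partners without which EZH2 is inactive. Many of these genes are known to be expressed mainly in dividing cells, and several are raised in pancreatic and other carcinomas. Only RNA was measured here, not methylation or histone marks.

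Values are FPKM, the fragments of a gene per kilobase of its length, scaled to the size of the library. The whole reads behind them summed to between 65872869 and 82252569 per library. Transcripts encoded by mitochondria took 22.6% ± 0.704 of the FPKM in DMSO and 14.8% ± 0.717 in HPC (SD, n = 5; exact two-sided permutation test, p = 0.00794, the smallest that 5 against 5 allows). This share is of summed FPKM and not of reads, so it does not give the reads left to other genes. Each direction below was also checked after rescaling to the FPKM sum without these transcripts. Of 8 ductal and epithelial markers, 4 reached 1 FPKM (KRT8, KRT18, KRT19 and SOX9), while the defining epithelial genes EPCAM and CDH1 were at 0.00197 and 0.00103 FPKM in DMSO, and the mesenchymal gene VIM averaged 695 FPKM in DMSO and 333 in HPC. KRT19 averaged 24.03 and 10.1 FPKM and SOX9 24.7 and 8.72 FPKM in DMSO and HPC. KRT18 and KRT8 were higher in HPC, with KRT18 at 114 FPKM in DMSO and 150 in HPC and KRT8 at 51.8 and 57.7. The mesenchymal gene ZEB1 averaged 1.29 FPKM in DMSO and 1.81 in HPC. VIM and ZEB1 were the 2 of 4 mesenchymal markers that reached 1 FPKM. FN1 averaged 0.0112 FPKM in DMSO and 0.0166 in HPC, and CDH2 was not among the genes measured. The defining genes of leukocytes, fibroblasts and endothelium (PTPRC, DCN and PECAM1) averaged at most 0.0026 FPKM in either group. Summed over their lists, leukocyte markers ranged from 2.94 to 3.80 FPKM in DMSO and from 8.42 to 11.0 in HPC, fibroblast markers from 24.5 to 26.7 and from 0.762 to 1.05, and endothelial markers from 1.43 to 1.53 and from 0.0152 to 0.0368. These sums rested mainly on CD68, COL1A2 and CDH5, and their part in the members' values was not tested.

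The 10 genes did not move together. Mean FPKM was lower in HPC for 9 of them and higher for 1, EZH2. The test, limma on log2(FPKM + 0.1), took genes that reached 1 FPKM in 5 or more libraries, and 6 of the 10 met that limit: 3 fell (UHRF1, DNMT1 and, by a small amount, SUZ12), 1 rose (EZH2) and 2 did not pass (EED and TET3). Over all 9150 tested genes 87.7% passed at an adjusted p under 0.05 (44.8% lower and 42.9% higher), so being called was the common outcome in these libraries. The median log2 fold change was -0.09 over the 6 genes and -0.01 over all tested genes. DNMT3A, DNMT3B, TET1 and TET2 lay under the limit and are described from a fit of all 16734 genes with no filter, in which 67.4% of genes passed (36.2% lower and 31.2% higher). In that fit 6 of the 10 were lower, 1 was higher and 3 did not pass. The 2 groups of 5 values were fully separate for 6 of the 10 (DNMT1, UHRF1, DNMT3B, EZH2, TET1 and TET2), against 58.4% of all genes without the filter and 79.6% of the tested ones. In bulk RNA, fewer cells expressing a gene and less RNA of it per cell cannot be told apart.

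**Figure D1:**
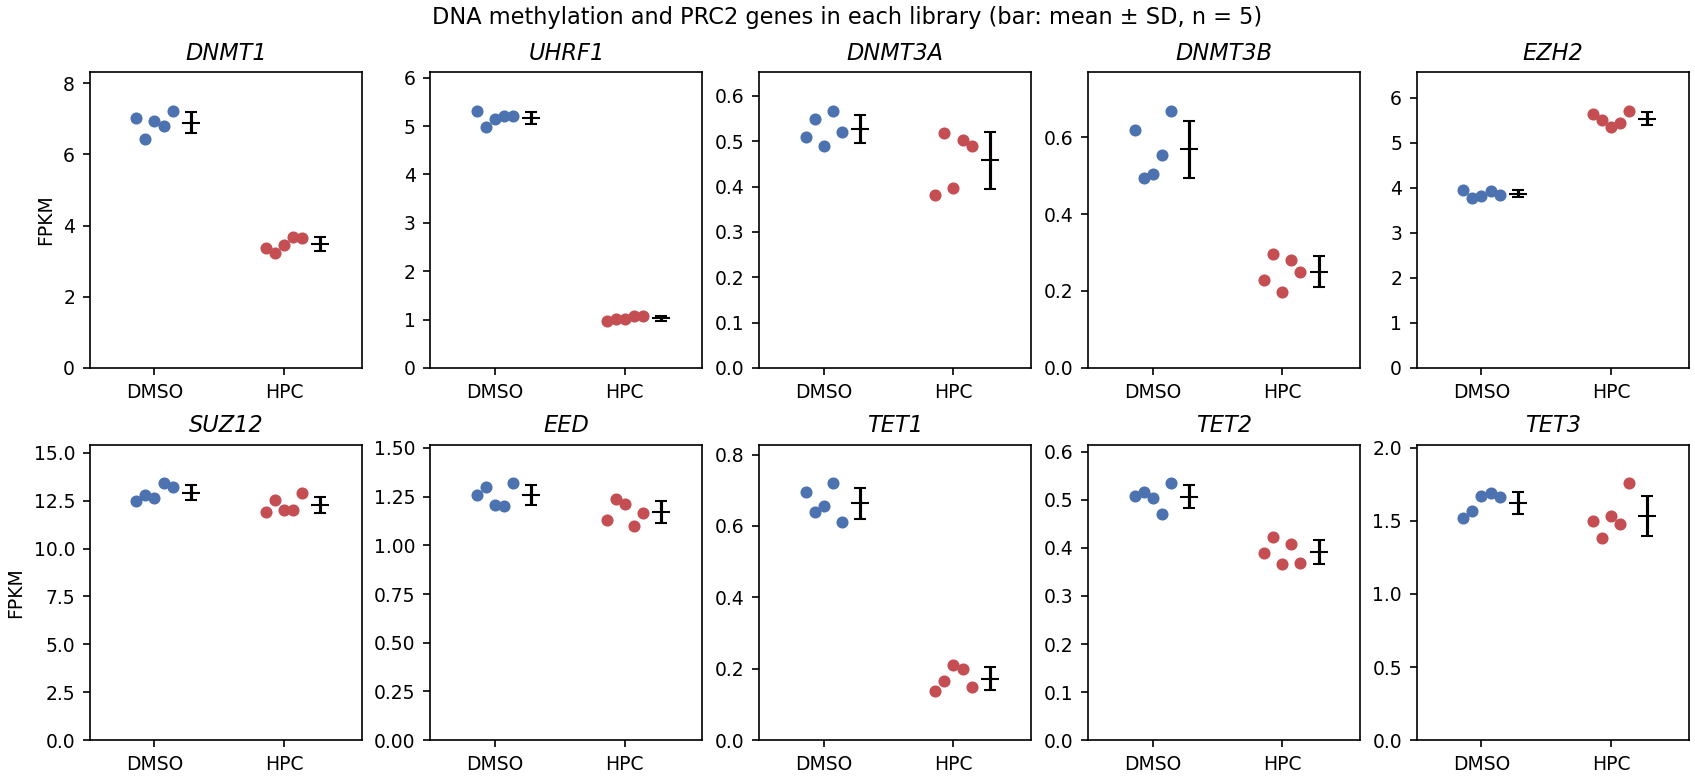
FPKM of the 10 genes in each of the 5 DMSO and 5 HPC libraries (points, replicates 1 to 5 from left to right) with the mean and SD beside them, each panel with its own linear axis from 0. The HPC points lie wholly below the DMSO points for DNMT1, UHRF1, DNMT3B, TET1 and TET2, and wholly above them for EZH2. The 2 groups of points overlap for DNMT3A, SUZ12, EED and TET3.

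Maintenance methylation genes showed the lowest HPC levels relative to DMSO among the tested members. UHRF1 (GRCh38 chr19:4903080-4962154, plus strand) encodes the protein that reads half-methylated DNA and recruits DNMT1. It read 5.32, 4.99, 5.15, 5.22 and 5.21 FPKM in DMSO libraries 1 to 5, from 9671 to 11206 reads each. In HPC libraries 1 to 5 it read 0.970, 1.00, 1.01, 1.06 and 1.08 FPKM, from 1772 to 1997 reads. Every HPC library was far below every DMSO library, and the spread within each group was narrow. UHRF1 fell by 2.23 on the log2 scale (SE 0.0366, limma with Benjamini-Hochberg adjustment, adjusted p = 1.14e-14), from a mean of 5.17 ± 0.121 to 1.02 ± 0.0442 FPKM (SD, n = 5).

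DNMT1 (chr19:10133345-10231286, minus strand), the maintenance methyltransferase itself, read 7.03, 6.44, 6.93, 6.80 and 7.22 FPKM in DMSO. Its HPC values were 3.36, 3.22, 3.44, 3.68 and 3.65 FPKM, from 7692 to 8950 reads a library against 16460 to 19883 in DMSO. The groups were again fully apart. DNMT1 fell by 0.97 on the log2 scale (SE 0.0424, limma, adjusted p = 9.34e-11), from 6.88 ± 0.293 to 3.47 ± 0.194 FPKM. One DNMT1 exon shares up to 83 bases with an exon of S1PR2 on the same strand in GENCODE 29, and the assignment of reads there is not given in the sources used here. Stretches around the start sites of UHRF1 and DNMT1 are shown because both hold, within a few bases of the start, a match to the 8-letter E2F element that is typical of genes of the G1/S transition. Each runs from 200 bases before the start to the first 20 bases of the transcript, in RefSeq's GRCh38.p14, UHRF1 at chr19:4909301-4909520 (plus strand) and DNMT1 at chr19:10194934-10195153 (minus strand). Capitals mark the match.
UHRF1: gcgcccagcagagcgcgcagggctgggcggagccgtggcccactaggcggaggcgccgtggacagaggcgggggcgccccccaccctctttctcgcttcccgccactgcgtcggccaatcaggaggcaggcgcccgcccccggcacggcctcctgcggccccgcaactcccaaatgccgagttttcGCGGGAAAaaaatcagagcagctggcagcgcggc
DNMT1: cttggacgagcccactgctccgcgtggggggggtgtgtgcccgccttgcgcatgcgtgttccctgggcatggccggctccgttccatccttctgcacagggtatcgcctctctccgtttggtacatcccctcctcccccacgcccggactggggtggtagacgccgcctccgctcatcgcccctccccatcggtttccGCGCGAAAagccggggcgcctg
Both matches read as the element on the strand opposite to transcription. Counted with the first transcribed base as 0, the one of UHRF1 began at -14 and the one of DNMT1 at -2. Of 3 UHRF1 starts in the RefSeq table, the first listed is shown.

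The de novo methyltransferases were low on the deposited FPKM scale, and only DNMT3B was called. DNMT3B (chr20:32762385-32809356, plus strand) read 0.618, 0.494, 0.505, 0.553 and 0.668 FPKM in DMSO libraries 1 to 5 and 0.228, 0.296, 0.198, 0.280 and 0.250 in HPC. These values came from 792 to 1047 and from 322 to 443 reads, counted over a gene length of 21865 bases. Each HPC library was lower than each DMSO library, with a wider spread than for UHRF1. DNMT3B fell by 0.93 on the log2(FPKM + 0.1) scale (SE 0.0972, limma with no filter, adjusted p = 5.44e-06). The pseudocount understates the change of a gene this low, and limma's voom on the recovered reads gave -1.19.

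DNMT3A (chr2:25227855-25342590, minus strand) read 0.509, 0.550, 0.491, 0.567 and 0.521 FPKM in DMSO and 0.381, 0.518, 0.398, 0.503 and 0.489 in HPC. HPC libraries 1 and 3 lay clearly below all DMSO libraries, library 5 just below them, and libraries 2 and 4 among them. The log2 fold change was -0.18 (95% interval -0.35 to -0.00051) and did not pass (limma with no filter, adjusted p = 0.0715). It passed without HPC replicate 2 (-0.22, adjusted p = 0.0363) and with voom on the recovered reads (-0.22, adjusted p = 0.0327, a setting in which 74.3% of genes passed), and at -0.32 with the non-mitochondrial sum (adjusted p = 0.00447).

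Among the PRC2 core genes EZH2 rose, SUZ12 differed slightly and EED did not pass. EZH2 (chr7:148807383-148884321, minus strand), the methyltransferase subunit, read 3.95, 3.77, 3.83, 3.94 and 3.84 FPKM in DMSO and 5.63, 5.51, 5.34, 5.45 and 5.71 in HPC. The lowest HPC library stood above the highest DMSO library by several times the spread within either group. EZH2 rose 1.42-fold on the log2(FPKM + 0.1) scale (log2 fold change 0.50, SE 0.0285, limma, adjusted p = 1.28e-09), from 3.87 ± 0.0768 to 5.53 ± 0.144 FPKM (SD, n = 5), with 6244 to 7145 reads a library in DMSO and 8154 to 9035 in HPC. It remained higher after rescaling to the non-mitochondrial sum, at 0.34.

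SUZ12 (chr17:31937018-32001045, plus strand), the scaffold subunit, read 12.5, 12.8, 12.6, 13.4 and 13.2 FPKM in DMSO and 11.9, 12.5, 12.0, 12.0 and 12.9 in HPC. The 2 groups overlapped. SUZ12 fell by 0.07 on the log2 scale (SE 0.0304, limma, adjusted p = 0.0373), and the call was lost without DMSO replicate 2, 4 or 5 or HPC replicate 1, 3 or 4 (adjusted p from 0.0517 to 0.0983). With the non-mitochondrial sum the value was -0.24. A pseudogene copy, SUZ12P1, lies on the same chromosome, and how reads that fit both were counted is not given in the sources used here.

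EED (chr11:86244544-86278813, plus strand), the subunit that binds the methylated histone tail, read 1.26, 1.30, 1.21, 1.20 and 1.32 FPKM in DMSO and 1.13, 1.24, 1.21, 1.10 and 1.17 in HPC. The groups overlapped, with HPC libraries 2 and 3 inside the DMSO range. The log2 fold change was -0.10 (95% interval -0.20 to 0.0015, limma, adjusted p = 0.0601). It was 0.03 after quantile normalization, and it passed at -0.12 after rescaling to TPM (adjusted p = 0.0259) and at -0.25 with the non-mitochondrial sum (adjusted p = 0.000164). It also passed with limma's plain variance model (adjusted p = 0.0317) and without DMSO replicate 3 or 4 or HPC replicate 2 (adjusted p from 0.0354 to 0.0492).

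The same stretch is shown for EZH2, which rose, and for SUZ12, which moved least among the called members, because their windows hold an E2F match as well (EZH2 chr7:148884272-148884491, minus strand; SUZ12 chr17:31936807-31937026, plus strand; RefSeq, GRCh38.p14). Capitals again mark the match.
EZH2: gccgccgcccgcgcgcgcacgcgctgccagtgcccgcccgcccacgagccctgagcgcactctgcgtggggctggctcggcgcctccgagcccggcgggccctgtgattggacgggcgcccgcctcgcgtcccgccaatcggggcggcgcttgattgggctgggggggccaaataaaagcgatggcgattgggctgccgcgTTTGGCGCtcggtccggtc
SUZ12: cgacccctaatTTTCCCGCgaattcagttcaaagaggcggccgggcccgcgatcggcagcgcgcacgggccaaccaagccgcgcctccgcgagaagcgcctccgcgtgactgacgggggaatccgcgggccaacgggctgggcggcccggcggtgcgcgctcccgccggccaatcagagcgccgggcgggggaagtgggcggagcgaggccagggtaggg
The match of EZH2 began at 1, just inside the transcript, and the one of SUZ12 at -189, far from the start. EZH2 is shown from the first of 2 listed starts, and its window also held CCAAT 4 times, counting both strands.

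The TET genes fell to different degrees or did not pass. TET1 (chr10:68560656-68694482, plus strand) read 0.694, 0.639, 0.655, 0.720 and 0.611 FPKM in DMSO and 0.139, 0.164, 0.211, 0.200 and 0.148 in HPC, from 421 to 518 and from 92 to 151 reads. No HPC library came near the DMSO range. TET1 fell by 1.49 on the log2(FPKM + 0.1) scale (SE 0.0820, limma with no filter, adjusted p = 2.27e-08) and by 1.95 with voom on the recovered reads.

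TET2 (chr4:105145875-105279816, plus strand) read 0.508, 0.517, 0.503, 0.471 and 0.535 FPKM in DMSO and 0.389, 0.423, 0.367, 0.408 and 0.369 in HPC. The groups did not overlap, though the highest HPC value was close to the lowest DMSO value. TET2 fell by 0.31 on the log2(FPKM + 0.1) scale (SE 0.05, limma with no filter, adjusted p = 0.000211), with 1348 to 2299 reads a library over a gene length of 55516 bases, against 9612 for TET1.

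TET3 (chr2:73986404-74108176, plus strand) read 1.52, 1.57, 1.67, 1.69 and 1.66 FPKM in DMSO and 1.50, 1.38, 1.53, 1.48 and 1.76 in HPC. HPC library 5 was the highest of all 10, HPC libraries 1, 2 and 4 were below every DMSO library, and HPC library 3 was above the lowest DMSO library alone. The log2 fold change was -0.08 (95% interval -0.20 to 0.04, limma, adjusted p = 0.201). Without HPC replicate 5 it was -0.13 and passed (adjusted p = 0.0235), after quantile normalization it was -0.00068, and with the non-mitochondrial sum it was -0.24 and passed (adjusted p = 0.00187).

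The choice of scaling set how many of the small differences were called. With the non-mitochondrial sum the median of all tested genes moved from -0.01 to -0.18, and the calls over all genes from 3922 higher and 4099 lower to 2957 higher (32.3%) and 5015 lower (54.8%). On that scale 5 of the 6 tested members were lower and 1, EZH2, higher, and with no filter 9 of the 10 were lower and 1 higher, where 43.6% of all genes were lower and 23.8% higher. SUZ12, EED and TET3, at -0.24, -0.25 and -0.24, then stood close to that shifted median, whereas UHRF1 (-2.39), DNMT1 (-1.13) and EZH2 (0.34) stood apart from it. Directions of UHRF1, DNMT1, DNMT3B, EZH2, TET1 and TET2 held in each fit that tested them.

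**Figure D2:**
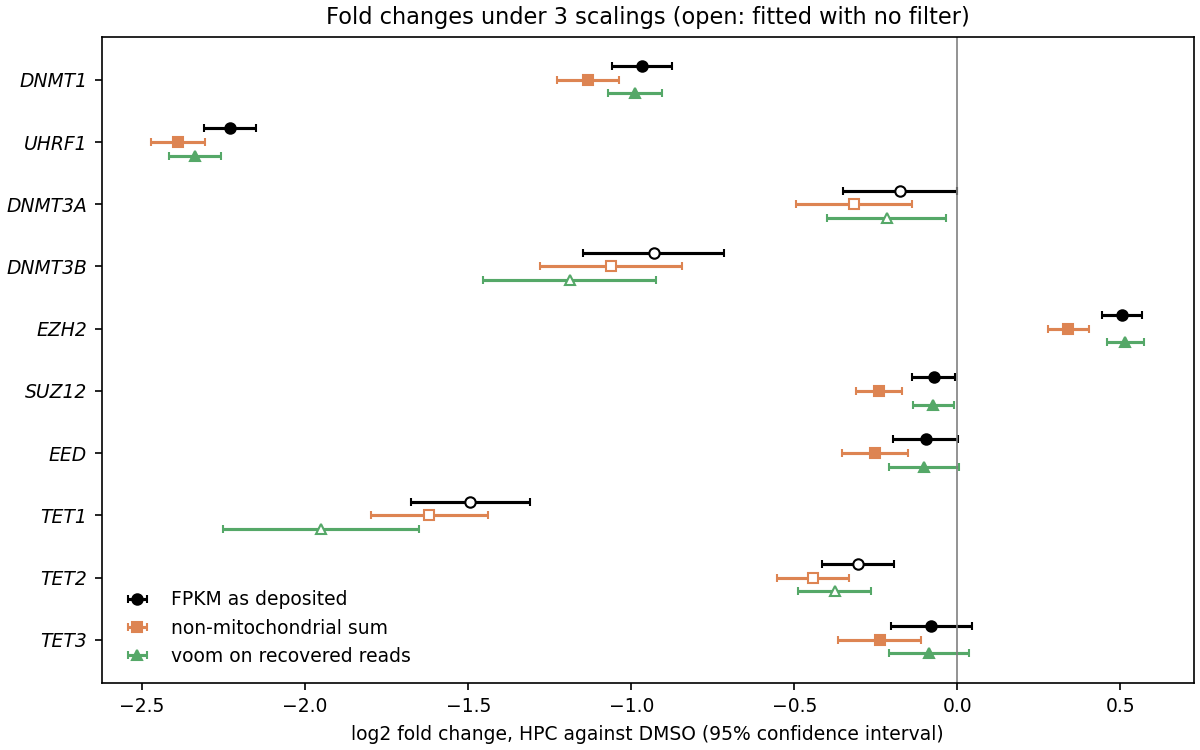
Log2 fold change of HPC against DMSO with its 95% confidence interval for the 10 genes, under FPKM as deposited, under rescaling to the non-mitochondrial sum and with voom on the recovered reads. Open symbols mark DNMT3A, DNMT3B, TET1 and TET2, which were fitted with no filter. UHRF1, TET1, DNMT1, DNMT3B and TET2 lie left of 0 and EZH2 right of 0 under all 3, while the intervals of EED and TET3 cross 0 except under the non-mitochondrial sum.

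Levels can be set side by side between genes only per length, and the lengths behind the deposited values were long. The lengths the authors' values imply were 1.03 to 5.14 times (median 3.01) the summed exons of GENCODE 29: 26471 against 5145 bases for UHRF1, and 9612 against 9288 for TET1. On the deposited FPKM scale the order in DMSO was SUZ12, DNMT1, UHRF1, EZH2, TET3, EED, TET1, DNMT3B, DNMT3A and TET2, and the ranges of each neighbouring pair among the last 4 overlapped. In HPC it was SUZ12, EZH2, DNMT1, TET3, EED, UHRF1, DNMT3A, TET2, DNMT3B and TET1, with DNMT3A and TET2, and DNMT3B and TET1, overlapping. UHRF1 thus went from the third place to the sixth and EZH2 from the fourth to the second.

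Per kilobase of GENCODE 29 exons, an alternative added after seeing the data, the order changed. In DMSO UHRF1 (26.6 ± 0.624), DNMT1 (24.5 ± 1.04), SUZ12 (23.1 ± 0.686) and EZH2 (19.4 ± 0.385) led on this scale (SD, n = 5), and UHRF1 overlapped with DNMT1 and DNMT1 with SUZ12. EED (3.02), DNMT3B (2.68) and TET3 (2.49) came next with overlapping neighbours, followed by TET2 (1.71), DNMT3A (1.40) and TET1 (0.687). In HPC EZH2 (27.7 ± 0.722) stood above SUZ12 (21.99 ± 0.779), DNMT1 (12.4 ± 0.691) and UHRF1 (5.27 ± 0.227) with no overlap. EED (2.81) and TET3 (2.36) overlapped, as did the neighbours among TET2 (1.32), DNMT3A (1.21) and DNMT3B (1.18), and TET1 was lowest at 0.179. On this scale DNMT3B, DNMT3A and TET2 averaged above 1 in both groups. That they lay under the limit of 1 FPKM for testing thus depended on the length used. Changes between the groups within a gene do not depend on the length used, apart from the pseudocount.

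**Figure D3:**
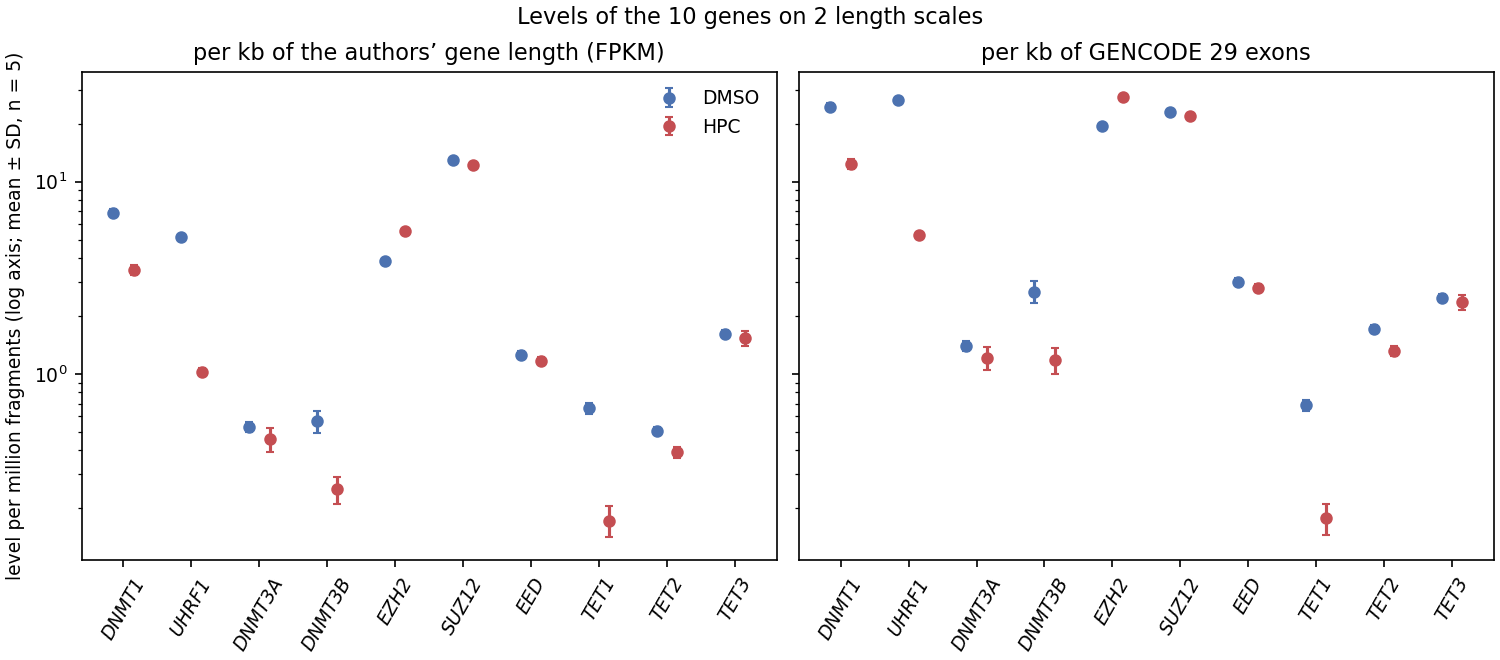
Mean level ± SD (n = 5) of the 10 genes in DMSO and HPC on a log axis, per kilobase of the authors' gene length (left) and of GENCODE 29 exons (right). On the left SUZ12 is highest in both groups, and on the right EZH2 at 27.7 is highest in HPC and UHRF1 at 26.6 in DMSO.

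A ratio within a library cancels its scaling apart from the pseudocount, which weighs most on low genes, and 10 ratios of FPKM + 0.1 were compared by an exact two-sided permutation test with Benjamini-Hochberg adjustment over the 10. Against PCNA, the replication clamp, whose FPKM fell from 87.98 ± 3.04 to 33.78 ± 1.12 (log2 fold change -1.38, limma, adjusted p = 8.90e-14), the 3 members differed. The log2 ratio of UHRF1 to PCNA was lower in HPC by -0.85 (SE 0.0363), that of DNMT1 to PCNA was higher by 0.41 (SE 0.0431) and that of EZH2 to PCNA was higher by 1.88 (SE 0.0388), each with p = 0.00794, the smallest the design allows (exact permutation test, adjusted p = 0.00992). So UHRF1 transcripts were lowered more than PCNA's and DNMT1 transcripts less, while those of EZH2 went the other way. EZH2 and PCNA were each fully apart between the groups, in opposite directions. That alone fixed the p of their ratio, which therefore adds nothing to the tests of the single genes.

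Paralogs also differed in these permutation tests. UHRF1 against UHRF2, a paralog that binds similar DNA but is not known to replace UHRF1 in maintenance, changed by -3.28 (SE 0.0336), as UHRF2 rose from 3.29 ± 0.0526 to 6.89 ± 0.121 FPKM. EZH2 against EZH1, the catalytic paralog of less cycling cells, was higher by 0.27 (SE 0.0575), although EZH1 rose as well, from 1.17 ± 0.0649 to 1.39 ± 0.0549 FPKM. DNMT3B against DNMT3A changed by -0.75 (SE 0.0893) and TET1 against TET3 by -1.41 (SE 0.113). These 4 ratios had p = 0.00794 as well (exact permutation test, adjusted p = 0.00992). UHRF1 and UHRF2 were each fully apart between the groups in opposite directions, so the p of their ratio was fixed by that. TET2 against TET3 changed by -0.23 (SE 0.0921, exact permutation test, p = 0.0397, adjusted p = 0.0441), with overlapping groups. That call was lost without DMSO replicate 1, 2, 3 or 5 or HPC replicate 1, 3, 4 or 5 (exact permutation test, adjusted p from 0.0529 to 0.0882) and with a pseudocount of 1 (-0.06, adjusted p = 0.273).

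Within PRC2, EZH2 against SUZ12 was higher in HPC by 0.58 (SE 0.0287, exact permutation test, p = 0.00794, adjusted p = 0.00992). EED against SUZ12 differed by -0.02 (SE 0.0429, exact permutation test, p = 0.595). With a pseudocount of 1, which weighs on low genes, UHRF1 against PCNA was -0.25, DNMT3B against DNMT3A -0.26 and TET1 against TET3 -0.45, still past the threshold (exact permutation test, adjusted p = 0.00992).

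**Figure D4:**
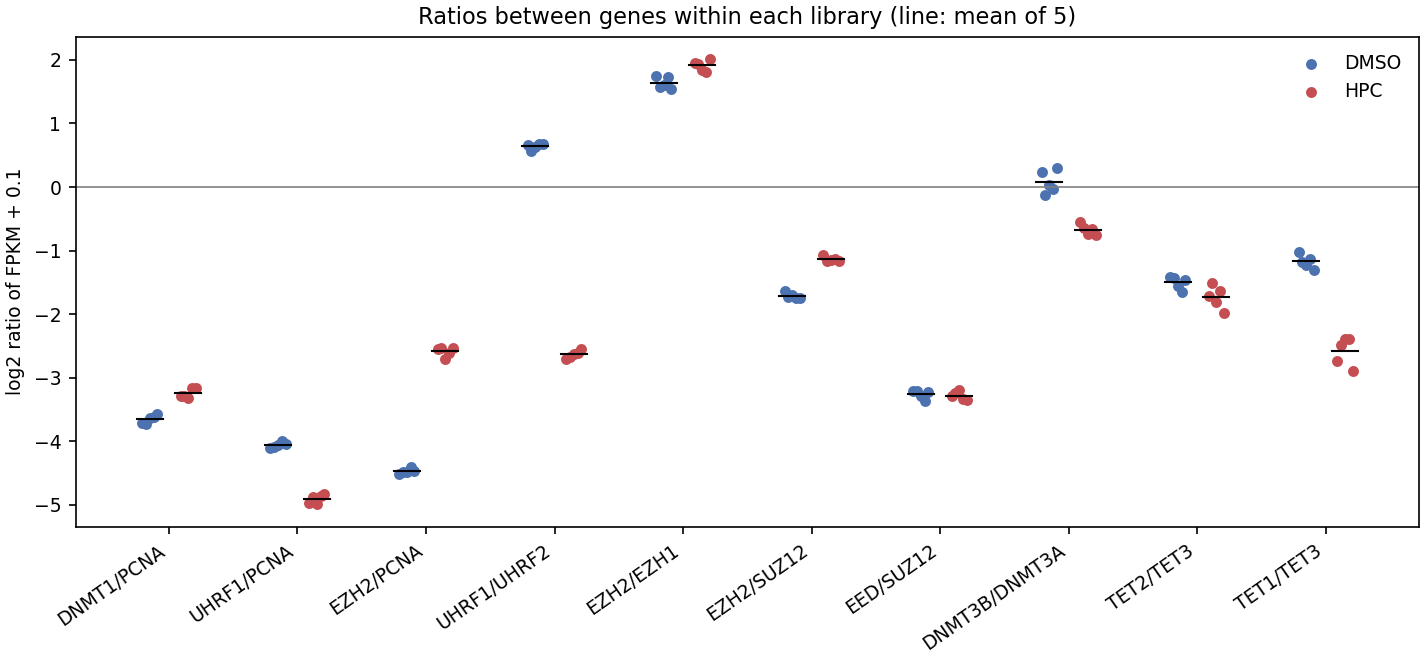
Log2 ratios of FPKM + 0.1 between pairs of genes in each library (points) with the mean of the 5 libraries of a group (line). The groups are apart for DNMT1/PCNA, UHRF1/PCNA, EZH2/PCNA, UHRF1/UHRF2, EZH2/EZH1, EZH2/SUZ12, DNMT3B/DNMT3A and TET1/TET3, and overlap for EED/SUZ12 and TET2/TET3.

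Promoter letters were searched on both strands in RefSeq windows of 300 bases around the first listed start of a gene. An E2F-type element (TTTCCCGC, TTTCGCGC, TTTGCCGC or TTTGGCGC) was found at 908 of 27305 starts (3.33%), at 4 of the 10 members (DNMT1, UHRF1, EZH2 and SUZ12) and at 13 of the 20 S-phase genes with a window. The 4 members with a match fell, rose or barely moved. CCAAT occurred at 35.7% of all starts and at 5 of the 10 members, and TTTGAA, the core of the cell cycle homology region, at 15.4% and at 2 (SUZ12 and TET2). None of these overlapped an E2F match in the members. A match describes letters only, and binding was not measured.

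Genes that share a function with the members were taken as lists, chosen for their roles. Counts of called genes in each list are to be read beside the shares over all 9150 tested genes, 44.8% lower and 42.9% higher. With the non-mitochondrial sum those shares were 54.8% and 32.3%. Of 24 genes of S phase all 24 fell, with a median log2 fold change of -1.57 and a range from -2.47 to -0.70. For 3 of them (CCNE2, E2F2 and ORC1) only DMSO libraries reached the limit for testing, which their fall helped to decide, and without these 21 of 21 fell (median -1.56). UHRF1 at -2.23 lay inside that range, as did DNMT1 at -0.97, and EZH2 lay outside it. Examples are MCM6, a helicase subunit (-1.08), and FEN1, a nuclease of lagging strand synthesis (-1.01). The part that fewer cycling cells play in the members' values was not tested.

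Most tested partners of DNA methylation maintenance moved in the direction of UHRF1 and DNMT1. Of 7 tested genes 5 fell and 2 rose (median -1.38), or 5 and 1 with the non-mitochondrial sum. Over all tested genes 44.8% were lower, or 54.8% with that sum. PCNA stands both in this list and among the S-phase genes, so its fall is counted in both. LIG1 among the 5 reached the limit in DMSO alone, and without it 4 of 6 fell (median -1.08). HELLS, a remodeller needed for methylation of packed chromatin, fell from 2.83 ± 0.177 to 0.992 ± 0.0816 FPKM (limma, adjusted p = 5.07e-11), and its partner CDCA7 from 9.23 ± 0.485 to 3.48 ± 0.243 FPKM (limma, adjusted p = 1.09e-11). UHRF2 and USP7, a deubiquitinase that stabilises DNMT1, were the 2 that rose, USP7 by 0.17, which was 0.01 and not past the threshold with the non-mitochondrial sum (limma, adjusted p = 0.798).

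Of 7 tested genes listed as methyl-CpG readers 4 rose, 2 fell and 1 did not pass (median 0.39). Whether each of them binds methylated DNA was not tested. MBD3, a subunit of the NuRD complex, rose by 0.50 and ZBTB38 by 0.39, ZBTB4 fell by 0.44, and ZBTB33 was at -0.01. Among genes of the path that follows TET oxidation and of TET cofactors, 3 of 8 rose and 5 fell (median -0.81), CXXC5 among the 5 having reached the limit in DMSO alone. TDG, the glycosylase that excises the oxidised bases, rose from 2.75 ± 0.0302 to 4.63 ± 0.202 FPKM (limma, adjusted p = 1.73e-10), while APEX1, which cuts the strand after it, fell by 0.78. OGT, the sugar transferase that binds TET proteins, rose by 0.33. The isocitrate dehydrogenases, which make the TET cosubstrate, split: IDH1 of the cytosol rose by 1.08 and IDH2 of mitochondria fell by 0.93. For supply of the methyl donor S-adenosylmethionine, 1 of 7 tested genes rose, 4 fell and 2 did not pass (median -0.16). MAT2A, the synthase, was at 0.02 (limma, adjusted p = 0.504), with its sign turned to -0.01 under TPM and to -0.16 and -0.15 under quantile normalization and the non-mitochondrial sum. Its adjusted p over all settings ran from 6.98e-05 to 0.962 (limma), so whether it was called depended on the setting. AHCY, which clears the product of methylation, fell by 0.16.

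Outside its core, PRC2 was mixed. Of 9 tested accessory or alternative subunits 3 rose and 6 fell (median -0.46). RBBP4 and RBBP7, histone chaperones of the core, fell from 14.3 ± 0.16 to 9.26 ± 0.49 and from 23.3 ± 0.376 to 13.6 ± 0.414 FPKM. JARID2 and AEBP2, which define 1 form of the complex, fell by 0.30 and 0.63. Genes of the other form went both ways: PHF19 and MTF2 fell by 0.97 and 0.46 and PHF1 rose by 0.43. These 3 were named after their values were seen. EPOP, also of that form, rose from 5.75 ± 0.345 to 14.5 ± 0.409 FPKM (limma, adjusted p = 2.16e-12). EZH1, the catalytic paralog, rose by 0.23, a rise that did not pass with the non-mitochondrial sum (0.08, limma, adjusted p = 0.154). PRC1, which reads the PRC2 mark, had 8 of 17 tested genes higher, 5 lower and 4 not passing (median 0.05), or 7 higher and 8 lower with the non-mitochondrial sum. Over all tested genes 42.9% were higher and 44.8% lower, or 32.3% and 54.8% with that sum. PCGF5 among the 8 reached the limit in HPC alone. RYBP, which marks variant forms of the complex, rose by 0.76 and RING1, a catalytic subunit, by 0.46, while CBX6 fell by 0.21.

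Of 4 tested genes that counter Polycomb marks 2 rose, 1 fell and 1 did not pass, or 1 and 1 called with the non-mitochondrial sum. KDM6B, which removes methyl groups from H3K27, rose from 1.05 ± 0.0484 to 5.35 ± 0.247 FPKM (2.24 on the log2 scale, SE 0.0423, limma, adjusted p = 3.46e-14). That rise was opposite in enzymatic role to the rise of EZH2 and larger on the log2 scale. BAP1, a deubiquitinase of histone H2A, fell by 0.19, its partner ASXL2 rose by 0.23, and ASXL1 was at 0.07. KDM6A was among the genes to be named regardless of value, but no values were obtained for it.

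**Figure D5:**
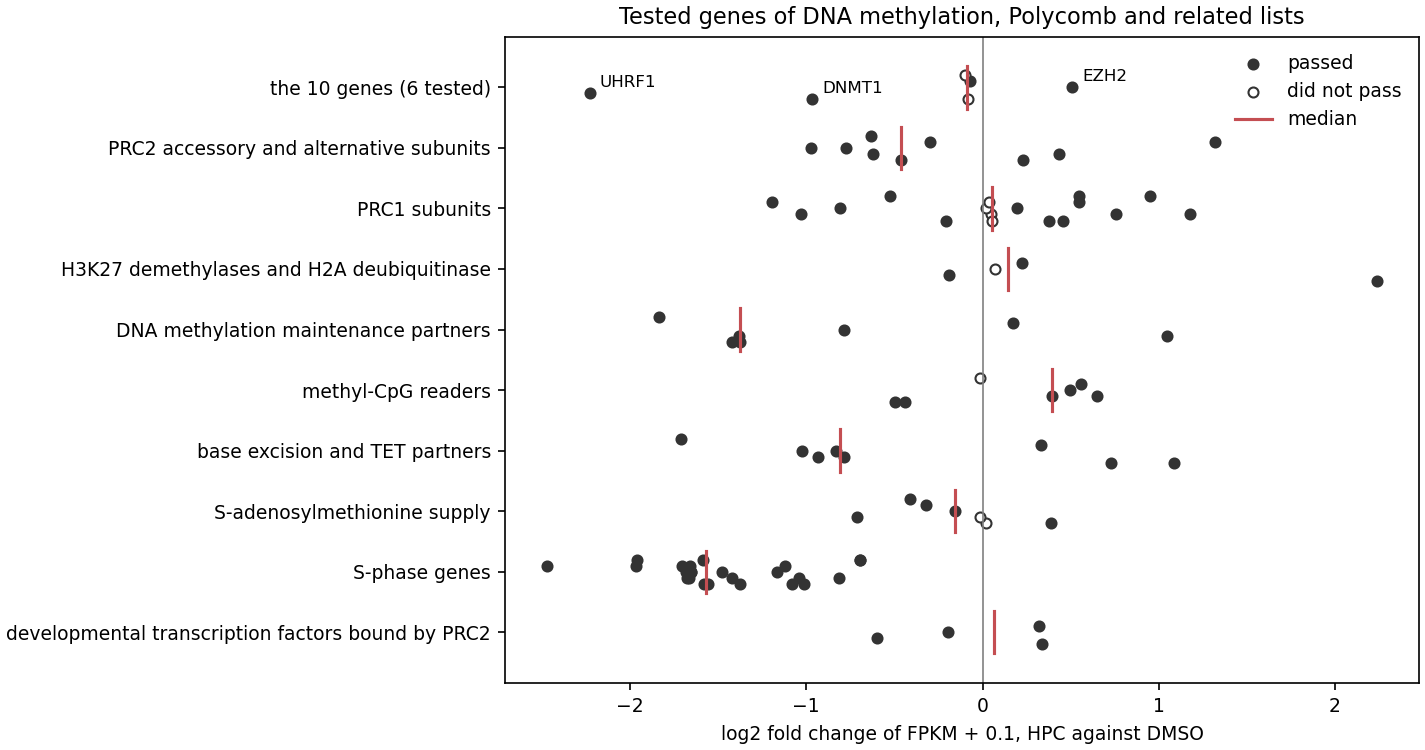
Log2 fold change of every tested gene in the lists (filled points passed at an adjusted p under 0.05, open points did not) with each list's median as a red bar. All 24 S-phase genes lie left of 0, and the PRC1 genes and the genes listed as methyl-CpG readers lie on both sides. EZH2 at 0.50 lies right of 0, while UHRF1 at -2.23 and DNMT1 at -0.97 lie left.

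Genes known to be kept silent by these enzymes were mostly low and differed in both directions. Of 8 germline genes in the table that DNA methylation holds silent in somatic cells, 0 were higher with no filter, 3 were lower and 5 did not pass. Over all 16734 genes in that fit 36.2% were lower and 31.2% higher. PRAME, the most abundant, fell from 1.29 ± 0.0998 to 0.483 ± 0.0397 FPKM (limma with no filter, adjusted p = 1.10e-08); it reached the 1 FPKM limit in DMSO alone. The next 3 by mean level were barely detected, SYCE1 at 0.0187 FPKM in DMSO and 0.00517 in HPC, SYCP3 at 0.00783 and 0.00191, and BRDT at 0.00807 in DMSO and listed at 0 in HPC. Of 4 tested developmental transcription factors that PRC2 is known to bind, 2 rose and 2 fell, among them GATA4 and EOMES, which rose by 0.34 and 0.32, and FOXF1, which fell by 0.19. With the non-mitochondrial sum EOMES was at 0.16 and did not pass (limma, adjusted p = 0.0561). With no filter 5 of the 14 in the table were higher, 5 lower and 4 did not pass.

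For 5 of the tested members, the gene whose log2 level followed most closely over the 10 libraries was MCM4 for UHRF1 (Pearson r = 0.9998), MRPS27 for DNMT1 (r = 0.999), ATP6AP2 for EED (r = 0.935), PAK2 for SUZ12 (r = 0.932) and KIF13B for TET3 (r = 0.834). These values describe 10 libraries in 2 groups, so for UHRF1 and DNMT1 they mostly restate the difference between the groups. MCM4, a helicase subunit of replication, fell by 1.70 on the log2 scale, and MRPS27, a mitochondrial ribosomal protein gene, by 0.90 (limma, adjusted p = 1.55e-14 and 1.43e-11).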

How the data were processed

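RNA was measured in 10 libraries (TRIzol, oligo(dT) selection, random-primed cDNA, paired-end sequencing on a NovaSeq, per the labels' protocols). Tools in the submitters' processing notes are STAR 2.7.7a, fastp 0.23.2 and edgeR (no version), and the build is GRCh38.p13. Which read counter and annotation made the values is not given in the sources used here. FPKM for 16734 genes were deposited by the authors. For all 15208 genes above 0 in at least 3 libraries, values were whole multiples of 1 read within 0.0001 reads, and the gene lengths they imply were whole numbers within 0.001 bases.

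Libraries were grouped by their labels. The main test was limma 3.58.1 in R 4.3.3 (trend and robust options, two-sided) on log2(FPKM + 0.1) with Benjamini-Hochberg adjustment at 0.05, over 9150 genes. This understates changes of low genes. Ratios and the mitochondrial share were compared by exact permutation over 252 assignments. The procedures were tested on simulated data. Python 3.11.15 was used with SciPy 1.17.1, pandas 2.3.3, NumPy 2.4.6 and matplotlib 3.10.9.

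The members and lists were chosen with earlier results of these data known. Named were all members, 11 genes regardless of value, the 4 most abundant of each list and the nearest tested gene of each tested member. Some genes this rule took are not reported by name here. Alternatives changed the pseudocount (1, 0.01), the filter (none, 5 FPKM), the scaling (TPM, quantile, non-mitochondrial sum), the variance model, the replicate block and which libraries entered. Chosen after seeing the data were voom on recovered reads, GENCODE 29 exon lengths and the settings with no filter for the low members.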

Additional observations from a re-analysis of the deposited data

Results flagged for a closer look

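Of 140 sets of 5 libraries checked for a single library far from the others, 7 held one, and chance gives about 1 in 20. None was a member. In DMSO these were AEBP2 in replicate 5 (7.34 FPKM, the others 6.76 to 6.90), SYCE1 in replicate 3 (0.0118 FPKM, the others 0.0193 to 0.0223), MCM4 in replicate 2 (7.58 FPKM, the others from 7.89 upward) and the mitochondrially encoded share of FPKM in replicate 2 (23.8%, the others 21.9% to 22.4%). In HPC they were RBBP4 in replicate 3 (10.1 FPKM, the others 8.80 to 9.16), RING1 in replicate 5 (9.27 FPKM, the others 10.7 to 11.2) and SYCP3 in replicate 2 (0.00954 FPKM, the others listed at 0).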

How the results depend on the processing

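The directions and calls of UHRF1, DNMT1, EZH2, DNMT3B, TET1 and TET2 held in every setting that fitted them. The count of lower members was 6 with no filter (10 tested) and 5 with the non-mitochondrial sum, and a filter of 5 FPKM left 1969 higher and 1836 lower genes because fewer were tested. That filter also left fewer list genes, with 1 higher and 3 lower PRC2 accessory genes, 5 and 2 of PRC1, 1 higher gene that counters Polycomb marks, 3 lower maintenance partners, 1 lower reader, 3 lower TET and repair genes, 0 higher methyl donor genes and 0 germline or developmental genes. With the non-mitochondrial sum 1 developmental gene was higher. PRAME was not tested without any 1 of the DMSO libraries, since it then reached the limit in too few. For single genes a call was lost in 26 alternative fits and gained in 17, mostly for PAK2, ATP6AP2, SUZ12, EED and DNMT3A. Signs turned for EED under quantile normalization (0.0320), MAT2A under TPM (-0.0115, also with the replicate block), quantile normalization (-0.164) and the non-mitochondrial sum (-0.150), ASXL1 under the non-mitochondrial sum (-0.0903), MAT2B and KIF13B under quantile normalization (0.00601 and 0.0456), ZBTB33 without HPC replicate 1 (0.0133, from -0.0325 without HPC replicate 2) and EED/SUZ12 with a pseudocount of 1 (0.0106). None of these had passed the main test, though the lowest adjusted p of MAT2A over the settings was 6.98e-05 (limma). The cause of these turns was not tested. TET2/TET3 was -0.0637 with a pseudocount of 1 and no longer passed, and leaving out 1 library gave -0.28 to -0.16, with the call kept only without DMSO replicate 4 or HPC replicate 2 (exact permutation test, adjusted p = 0.0353). Replicate numbers did not pair the libraries: same-numbered libraries correlated in their deviations at -0.059 to 0.199, and 2 of 5 DMSO libraries correlated best with their own number. The replicate block gave 3892 higher and 4077 lower genes, and DNMT3A passed with it (limma with no filter, adjusted p = 0.0365). For ratios the block is a sign-flip over 5 pairs, whose smallest exact p of 0.0625 cannot pass, so the values 0.41, -0.85, 1.88, -3.28, 0.27, 0.58, -0.75, -0.23 and -1.41 and the mitochondrial share (-7.84) say nothing there about stability. Among the members TET1 had the fewest reads, 92 in 1 HPC library, and the germline genes SYCE1, SYCP3 and BRDT had at most 21 in any library. Recovered reads carry no molecular identifiers, so they are not independent molecules.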
